A study of Mus musculus with 12 samples.

Results

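Germline stem cell-like cell (GSCLC) lines made under condition 2 were compared with germline stem cell (GSC) lines from the testis. The comparison used every library of both kinds, 8 of the 12 libraries in the series, from 4 of its 6 lines. The GSC side was lines GSC_1 and GSC_2, each started from a separate testis at postnatal day 7. The condition 2 side was lines GSCLC_2 and GSCLC_3, started from reconstituted testes whose organ culture ran 2 weeks at 37 °C followed by 1 week at 34 °C. All lines carried the AcrAct_EGFP reporter on a C57BL/6 x 129/SvJcl background and grew in the same serum-poor medium with GDNF, basic FGF, LIF and EGF. Each line has 2 libraries from separate cultures, so a line is the unit of comparison and its 2 cultures are repeats of that line. The kind of line, the organ it came from and the temperature of that organ's culture cannot be told apart between GSC and condition 2 lines. Per the series title, the series concerns spermatogonial stem cell activity derived from pluripotent stem cells.

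GSCs are cultured spermatogonial stem cells, the cells that maintain sperm production by dividing without losing the ability to differentiate. In the mouse testis, Sertoli and peritubular cells supply GDNF, which acts through the receptor RET and its co-receptor GFRA1, and FGF, which acts through receptor tyrosine kinases and the ERK cascade. These signals raise a set of transcription factors, among them ETV5, BCL6B, LHX1 and EGR2, that act in stem cell self-renewal. Retinoic acid moves the cells towards differentiation, marked by KIT and STRA8.

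The measurements came from SC3-seq, which amplifies and sequences the 3′ ends of messenger RNA, here from 1 ng of total RNA. Values are RPM, read counts scaled to the same total in every library. Since 3′-end counts carry no length term, a level can be set beside that of another gene only roughly, and comparisons here are within a gene. The smallest step between values put the depth of the 8 libraries at 3067894 to 4644184 reads, so 3 reads, the level below which a value is close to not detected, were worth 0.646 to 0.978 RPM. Between 3.9 and 4.88% of a library's reads fell on its 10 highest genes. Pearson's r of log2 levels across genes was 0.967 to 0.975 between the cultures of a line and 0.967 between the GSC lines. It was 0.948 between GSCLC_2 and GSCLC_3 and 0.933 to 0.942 between GSC and condition 2 lines. Genes are not independent replicates, so these r values only describe the libraries.

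The labelled cell type was checked against germ cell markers. Dazl, which encodes a germ cell RNA-binding protein, had 1355, 1200, 1289 and 1328 RPM in the GSC libraries and 1429, 1324, 1452 and 1312 RPM in the condition 2 libraries. The groups overlapped, and the log2 difference was 0.09 (SE 0.12, limma adjusted p = 0.751). Ddx4, the germ cell RNA helicase, had 362 to 604 RPM in GSCs and 464 to 566 RPM in condition 2. The defining markers of Sertoli cells Amh and Fshr, of Leydig cells Cyp17a1 and Lhcgr and of spermatids Prm1 and Tnp2 were listed at 0 in all 8 libraries. Other members of these lists were detected. Sox9 reached 7.11 RPM, Insl3 6.77 RPM, Zpbp 6.52 RPM and Tnp1 4.59 RPM, and the steroid enzyme genes Cyp11a1 and Hsd3b1 and the Sertoli gene Clu were higher still in GSC libraries and are described with the somatic lists. Of the 27 measured genes of the germ cell core list, 24 were tested and 1, Pou5f1, passed the test, beside 1.46% of all tested genes.

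Of 26219 genes, 11471 reached 5 RPM in at least 2 of the 8 libraries and were tested. limma called 168 of them (1.46%) at a Benjamini-Hochberg adjusted p under 0.05, with 51 higher (0.445%) and 117 lower (1.02%) in condition 2 lines. The change of 140 of the 168 was over 2-fold. Under quantile normalisation the split was 60 higher and 88 lower. The median log2 difference over all tested genes was -0.04. Without line GSC_1 the number called was 10, and without line GSC_2 it was 13, so the size of the count rests on having both GSC lines. Libraries of the groups did not overlap for 1723 genes (15%), and 165 of the 168 called genes were among these.

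**Figure D1:**
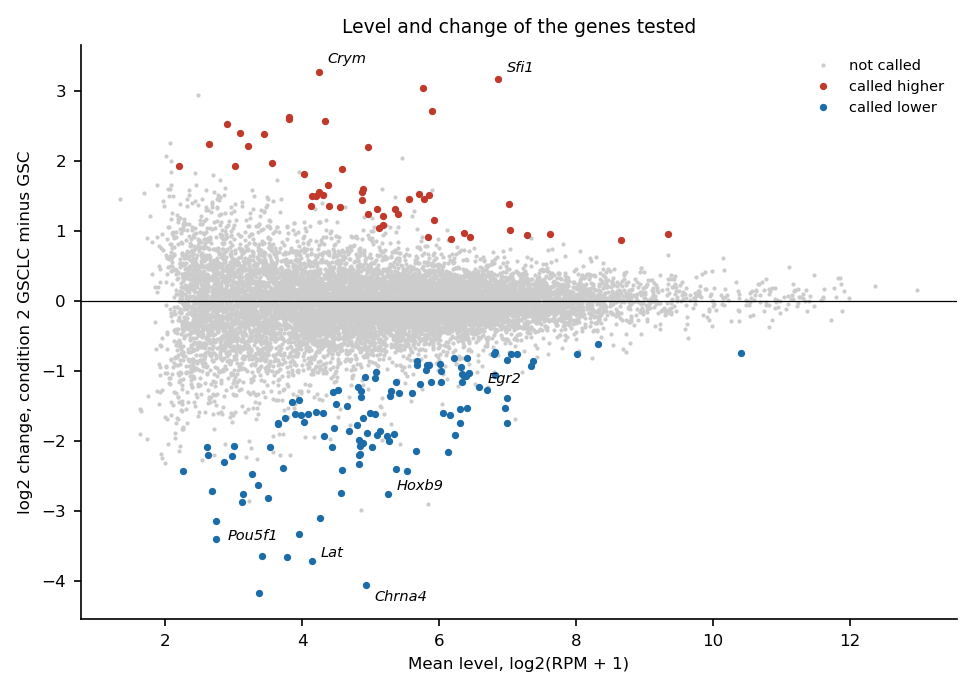
The mean level of each tested gene over both groups, log2(RPM + 1), against its log2 change between condition 2 GSCLC and GSC lines. Each point is a gene, with the 51 called higher in red and the 117 called lower in blue, and the lower calls reach further from 0 than the higher ones.

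Of the 26 tested genes of the FGF and GDNF response, 5 fell and none rose, beside 1.02% lower and 0.445% higher over all tested genes. The 5 were Ccnd1, Egr2, Bcl6b, Egr1 and Il17rd. The median log2 change of the list was -0.22, beside -0.04 for all genes. The lists were chosen with earlier results of these data known, so the list counts here and below are descriptions. Egr2 encodes an immediate early zinc finger factor. Immediate early genes are known to be induced through the serum response factor, which binds a CArG box and acts downstream of ERK, so promoters of this group were searched for that motif and those that hold it are shown. Promoters of 8 genes were looked up in the RefSeq GRCm38.p6 table, namely members of the response and stem cell lists that fell, and 5 genes matched with 9 windows. Egr1, Bcl6b and Ccnd1 were not among those searched. A CArG box, searched on both strands because the motif reads the same on each, was in 4 of these windows, all of Egr2. Of the 4, 3 overlap and hold the same box, so there are 2 distinct boxes. Over all 32851 promoter windows of the table, 535 (1.63%) held one. Below are the 250 bases before each of a pair of Egr2 starts, on the plus strand at chr10:67537316-67537565 and chr10:67537619-67537868, with the CArG box in capitals.
Egr2 upstream start: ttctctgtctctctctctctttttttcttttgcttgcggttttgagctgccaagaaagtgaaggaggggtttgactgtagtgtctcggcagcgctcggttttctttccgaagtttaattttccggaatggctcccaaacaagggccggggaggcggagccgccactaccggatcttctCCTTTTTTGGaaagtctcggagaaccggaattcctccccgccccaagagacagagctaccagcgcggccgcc
Egr2 downstream start: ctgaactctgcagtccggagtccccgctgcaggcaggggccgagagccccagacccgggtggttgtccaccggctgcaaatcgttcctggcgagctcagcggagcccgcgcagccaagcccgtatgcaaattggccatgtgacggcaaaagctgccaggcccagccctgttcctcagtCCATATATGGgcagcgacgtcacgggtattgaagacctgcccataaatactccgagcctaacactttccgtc
The match is a description of these letters and not a measured binding site.

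Egr2 had 164, 114, 109 and 141 RPM in the GSC libraries and 59.4, 57.7, 83.7 and 31.8 RPM in the condition 2 libraries. Every condition 2 library was below every GSC library, and the spread was widest between the cultures of GSCLC_3. The log2 change was -1.23 (SE 0.17, adjusted p = 0.00987, n = 2 lines per group). Egr1, its immediate early relative, had 205, 196, 205 and 234 RPM in GSCs and 110, 98.6, 183 and 89.2 RPM in condition 2. Its groups did not overlap, although the first culture of GSCLC_3 came close, and its log2 change was -0.86 (SE 0.15, adjusted p = 0.0315). Bcl6b, a transcriptional repressor that GDNF raises, had 194, 130, 112 and 159 RPM in GSCs and 71.0, 63.9, 115 and 44.2 RPM in condition 2. The first culture of GSCLC_3 lay within the GSC range, and the log2 change was -1.06 (SE 0.16, adjusted p = 0.012).

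Ccnd1 encodes cyclin D1, which carries growth factor signals into the cell cycle. It had 86.7, 84.8, 91.1 and 132 RPM in GSCs and 31.3, 26.3, 43.3 and 27.2 RPM in condition 2. The groups did not overlap, and the log2 change was -1.60 (SE 0.26, adjusted p = 0.0245). Its 3′ end overlaps a gene on the opposite strand, and the sources used here do not say whether counting used strand. Il17rd, which encodes an inhibitor of FGF signalling, fell from 124 to 163 RPM to 73.0 to 92.4 RPM, a log2 change of -0.73 (SE 0.15, adjusted p = 0.043). Without the second culture of GSCLC_3, the adjusted p of each of these 5 genes was above 0.05, and the number of genes called in all was 80.

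The other feedback and immediate early genes did not pass the test. Spry4 had a log2 change of -1.16 (adjusted p = 0.0968), while Spry2, of the same family of ERK inhibitors, had 0.91 (adjusted p = 0.187). Dusp6, an ERK phosphatase, had -0.13 and Etv4 had 0.07. Fos was at 30.1 to 49.2 RPM in GSCs and 20.1 to 49.5 RPM in condition 2. Of 16 tested receptors for the growth factors in the medium and related ligands, none passed. Ret had 271, 279, 294 and 267 RPM in GSCs and 245, 226, 280 and 288 RPM in condition 2, and its groups overlapped. Gfra1 had 369, 332, 280 and 344 RPM in GSCs and 320, 305, 328 and 203 RPM in condition 2, with a log2 difference of -0.21 (SE 0.15, adjusted p = 0.553). A gene on the opposite strand shares its 3′ end. Fgfr1 had 61.9 to 67.2 RPM in GSCs and 82.7 to 140 RPM in condition 2, without overlap, but its adjusted p was 0.112.

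Of 34 tested regulators of spermatogonial stem cells, 5 fell (14.7%) and none rose, beside 1.02% lower over all tested genes. Besides Egr2 and Bcl6b, the 5 were Lhx1, Eomes and Epcam, and the median log2 change of the list was -0.37. Without the second culture of GSCLC_3, Lhx1 kept its call and Egr2, Bcl6b, Eomes and Epcam lost theirs. Eomes and Epcam each lost their call in 4 of the 8 fits that left out 1 library. Lhx1, a LIM homeobox factor that GDNF raises, had 110, 103, 104 and 108 RPM in GSCs and 38.6, 39.1, 33.6 and 25.9 RPM in condition 2. The groups were far apart, with a log2 change of -1.62 (SE 0.29, adjusted p = 0.0315). Epcam, a surface adhesion protein of spermatogonia, fell from 183 to 252 RPM to 103 to 120 RPM, a log2 change of -0.93 (SE 0.17, adjusted p = 0.0345). Eomes, a T-box factor found in a part of the stem cell pool, had 46.9, 49.1, 37.4 and 41.6 RPM in GSCs and 4.76, 8.61, 41.8 and 8.09 RPM in condition 2. The first culture of GSCLC_3 was at the GSC level and the other 3 libraries were well below it. Its log2 change was -1.88 (SE 0.39, adjusted p = 0.0473). T, a related T-box factor, was likewise highest within condition 2 in that culture, at 58.5 RPM beside 6.74 to 8.52 RPM in the others, and did not pass (adjusted p = 0.184).

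Other regulators of the stem cell state gave no call. Etv5 had 263, 285, 254 and 324 RPM in GSCs and 222, 227, 291 and 173 RPM in condition 2, a log2 difference of -0.32 (SE 0.13, adjusted p = 0.279). Its 3′ end shares sequence with Gm4798. Zbtb16, the zinc finger factor PLZF, had 68.9 to 79.9 RPM in GSCs and 81.4 to 107 RPM in condition 2 (adjusted p = 0.33). Id4 had 84.2 to 124 RPM in GSCs and 67.7 to 90.8 RPM in condition 2. Nanos2, a translational regulator of the stem cell state, was low in both, at 11.6 to 14.6 RPM and 5.39 to 15.9 RPM. Differentiation regulators gave 1 call in 18, the fall of Ccnd1, beside 1.02% lower over all tested genes. Kit, a marker of differentiating spermatogonia, had 27.1, 34.5, 39.1 and 40.1 RPM in GSCs and 25.3, 27.1, 29.1 and 24.3 RPM in condition 2 (adjusted p = 0.424). Stra8, the retinoic acid target, had 7.65 to 16.3 RPM in GSCs and 2.97 to 13.8 RPM in condition 2.

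The genes that rose most were a mixed group. Those named for the largest rises and falls were chosen among called genes whose libraries did not overlap, so that separation follows from the choice. Crym, which encodes the thyroid hormone-binding mu-crystallin (chr7:120186380-120201989, GRCm38), had 2.61, 5.38, 0.985 and 2.3 RPM in the GSC libraries and 30.3, 38.3, 32.8 and 30.5 RPM in the condition 2 libraries. The condition 2 libraries were alike and all far above the GSC libraries. The log2 change was 3.27 (SE 0.33, adjusted p = 0.00242).

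Sfi1 had 19.9, 35.7, 19 and 15.8 RPM in GSCs and 271, 243, 140 and 180 RPM in condition 2. Its product binds centrin at the centrosome, as first known in yeast. The log2 change was 3.17 (SE 0.25, adjusted p = 0.000749), but its 3′ end shares runs of 50 bases with several other genes, so its level is uncertain. Slc38a4, an imprinted amino acid transporter gene, had 19.6, 22.6, 8.62 and 11.2 RPM in GSCs and 95.5, 75.9, 120 and 114 RPM in condition 2. The groups were apart, with a log2 change of 2.71 (SE 0.32, adjusted p = 0.00538). Tpp1, which encodes a lysosomal peptidase, had 11.7, 8.18, 10.1 and 11.0 RPM in GSCs and 45.4, 57.1, 50.6 and 47.7 RPM in condition 2. The groups lay far apart beside the spread within each, and the log2 change was 2.19 (SE 0.23, adjusted p = 0.00268).

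Of the remaining 5 named for their rise, Blnk encodes an adaptor of the B cell receptor and Spsb4 a substrate adaptor of ubiquitin ligases. Blnk had 1.23 to 5.87 RPM in GSCs and 15.3 to 30.3 RPM in condition 2, a log2 change of 2.63 (SE 0.42, adjusted p = 0.0215). Spsb4 had 1.3 to 5.17 RPM and 20.6 to 24.6 RPM, a log2 change of 2.60 (SE 0.28, adjusted p = 0.00268). Sall2, a zinc finger factor of the spalt family, had 5.66 to 15.7 RPM and 26.7 to 44.9 RPM (log2 change 1.88, adjusted p = 0.0305). Prelid2 rose by 2.57 (adjusted p = 0.0315). Klhl26, of the kelch-like family, rose by 1.81 (adjusted p = 0.0395), and was higher in GSCLC_3 than in GSCLC_2.

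The 10 named falls reached further. Chrna4 (chr2:181022311-181043579), which encodes a subunit of the nicotinic acetylcholine receptor, had 36.8, 51.9, 64.5 and 72.5 RPM in the GSC libraries and 3.51, 2.87, 2.54 and 1.08 RPM in the condition 2 libraries. Every condition 2 library was far below every GSC library. The log2 change was -4.05 (SE 0.34, adjusted p = 0.00103). Lat (chr7:126363827-126369705), a linker protein of T cell receptor signalling, had 31.3, 29.1, 27.3 and 39.5 RPM in GSCs and 1.25, 2.87, 0.848 and 1.35 RPM in condition 2. The GSC libraries were close to each other and far above the rest, with a log2 change of -3.71 (SE 0.34, adjusted p = 0.00186).

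Pou5f1 (chr17:35506032-35510777) encodes OCT4, a factor of pluripotent cells and early germ cells. It had 35.5, 15.9, 28.1 and 28.1 RPM in GSCs and 1.76, 3.65, 0.565 and 1.62 RPM in condition 2. All condition 2 libraries were below all GSC libraries, and the log2 change was -3.32 (SE 0.36, adjusted p = 0.00293). A gene on the opposite strand shares its 3′ end. Rhbdl3, of the rhomboid protease family, had 27.4 to 61.5 RPM in GSCs and 2.7 to 7.07 RPM in condition 2, a log2 change of -2.74 (SE 0.34, adjusted p = 0.00639). Prrx2, a paired-related homeobox gene, had 65.2, 77.5, 67.0 and 63.0 RPM in GSCs and 12.3, 9.91, 20.4 and 8.36 RPM in condition 2 (log2 change -2.40, SE 0.25, adjusted p = 0.00242).

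**Figure D2:**
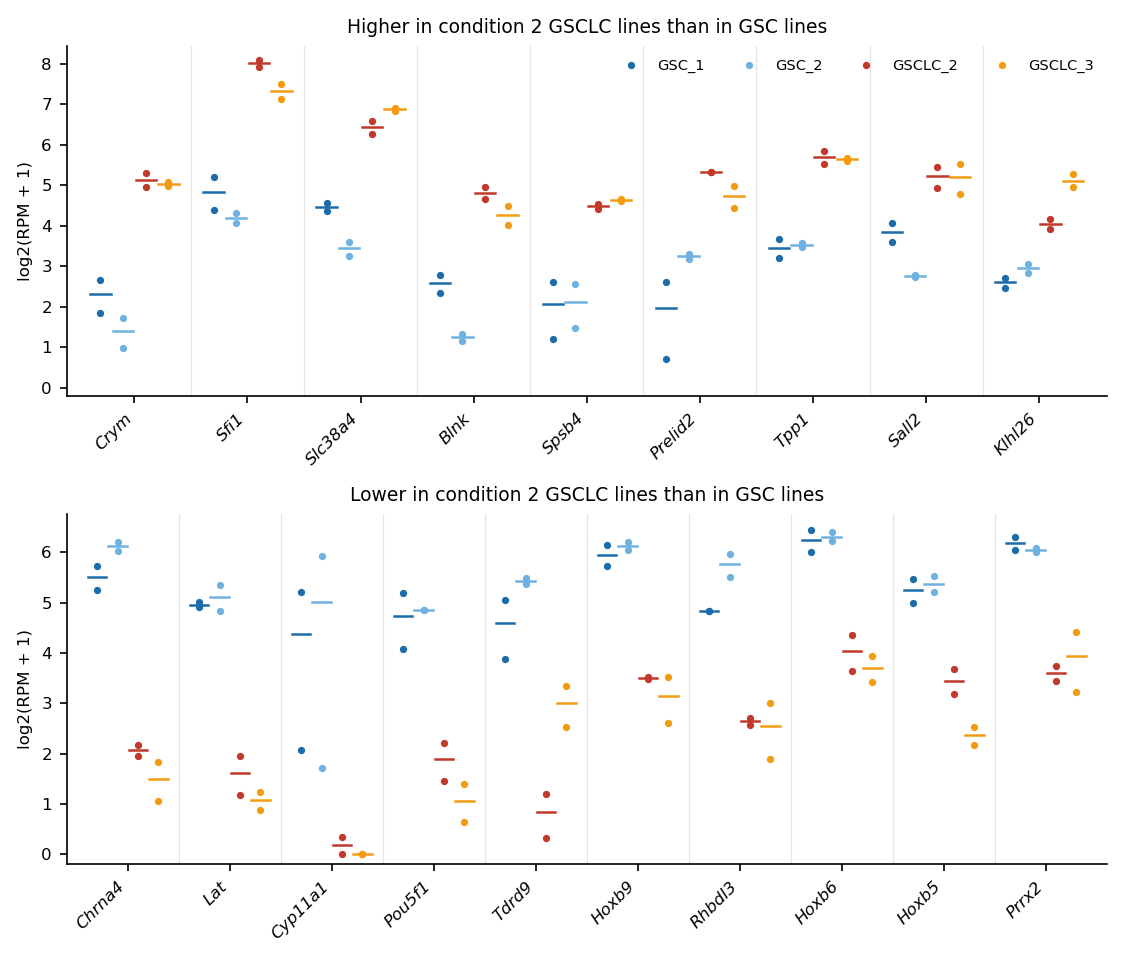
Levels, log2(RPM + 1), of 9 genes named for their rise (top) and the 10 named for their fall (bottom) in condition 2 GSCLC lines. Points are single libraries, bars are the mean of the 2 cultures of a line. By the rule that named these genes, the 4 condition 2 libraries of each lie on one side of the 4 GSC libraries. Cyp11a1 differs most between the cultures of a GSC line.

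Hox genes, which set position along the body axis, had the lowest median change of the 26 lists. Of 39 listed, 12 were tested, and 7 of these 12 fell while none rose, beside 1.02% lower over all tested genes. The median log2 change of the list was -2.11. All 7 were of the Hoxb cluster on chromosome 11: Hoxb1, Hoxb2, Hoxb5, Hoxb6, Hoxb7, Hoxb8 and Hoxb9. Hoxb9 had 69.8, 52.3, 65.2 and 73.0 RPM in GSCs and 10.5, 10.2, 10.5 and 5.12 RPM in condition 2. The groups were far apart, with a log2 change of -2.75 (SE 0.30, adjusted p = 0.00293). Hoxb6 had 86.1, 63.1, 73.4 and 83.4 RPM in GSCs and 19.6, 11.5, 14.4 and 9.7 RPM in condition 2 (log2 change -2.42, SE 0.41, adjusted p = 0.0287). Hoxb2 had a log2 change of -2.32 (adjusted p = 0.00827), with a transcript on the opposite strand at its 3′ end. The log2 change was -2.41 for Hoxb5 (adjusted p = 0.0361), -2.18 for Hoxb8 (adjusted p = 0.0101) and -2.07 for Hoxb1 (adjusted p = 0.0375).

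Hoxb7, in the middle of the cluster, had 111, 114, 106 and 131 RPM in GSCs and 51.6, 54.8, 27.7 and 29.1 RPM in condition 2. The condition 2 lines themselves differed, GSCLC_3 being lower by 0.88 (adjusted p = 0.00685 in the comparison of these lines). Hoxb3 and Hoxb4 had changes of -2.15 and -2.0 and missed the threshold with adjusted p of 0.0583 and 0.0522. Hoxb13, at the other end of the cluster, had -1.01 (adjusted p = 0.0831). Hoxa10 went another way within condition 2: it had 20.6 and 14.1 RPM in GSCLC_2, 0.283 and 0.27 RPM in GSCLC_3 and 1.51 to 3.91 RPM in GSCs. Chromosome 11 held 24 of the 117 genes that were lower, 2.54% of its 944 tested genes, beside 1.02% over all genes.

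Pluripotency factors gave 2 falls in 18 tested, Pou5f1 and Tcl1, beside 1.02% lower over all genes. Tcl1, a coactivator of AKT, had 166, 156, 227 and 229 RPM in GSCs and 74.0, 73.3, 43.3 and 43.7 RPM in condition 2. The groups did not overlap, and the log2 change was -1.74 (SE 0.27, adjusted p = 0.017). Nanog reached at most 0.326 RPM in any of the 8 libraries and was not tested. Primordial germ cell genes gave no call in 10.

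Few genes of the germ cell programmes passed the test. Over all tested genes, 1.02% were lower and 0.445% higher. Of 23 piRNA pathway genes, 1 fell, which was Tdrd9, an ATPase needed to silence transposons in the male germ line. Tdrd9 had 32.3, 13.8, 40.1 and 43.6 RPM in GSCs and 0.251, 1.3, 4.81 and 9.16 RPM in condition 2. The groups did not overlap, the condition 2 lines differed from each other, and the log2 change was -3.09 (SE 0.62, adjusted p = 0.0429). Of 26 meiotic prophase genes, 1 fell, Tex19.1, which acts in transposon repression and meiosis. It had 147, 81.0, 106 and 126 RPM in GSCs, 16.5 and 17.5 RPM in GSCLC_2 and 48.3 and 50.7 RPM in GSCLC_3 (log2 change -1.91, SE 0.37, adjusted p = 0.0395). Its 3′ end shares sequence with Tex19.2. No call was made among 17 DNA methylation genes, 32 Polycomb genes or 5 spermatid genes.

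Imprinted genes gave 1 rise and 1 fall in 33 tested, beside 0.445% higher and 1.02% lower over all tested genes. Slc38a4 was the rise. H19, a maternally expressed noncoding RNA, had 26.1, 36.4, 80.2 and 64.0 RPM in GSCs and 4.51, 15.7, 11.0 and 14.3 RPM in condition 2. The groups did not overlap, though both cultures of GSC_2 were above those of GSC_1, and the log2 change was -2.08 (SE 0.37, adjusted p = 0.0315). Reads of the microRNA Mir675, which shares sequence with it, cannot be separated from those of H19.

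Stress, growth and metabolic lists gave few calls. None of 31 heat shock genes passed, and their median log2 change was 0.04. Hspa1a, the inducible chaperone, had 11.4, 10.8, 15.3 and 12 RPM in GSCs and 13.3, 13.6, 11 and 14 RPM in condition 2. Hspa8, the constitutive chaperone, had 2863 to 3156 RPM in GSCs and 2642 to 3430 RPM in condition 2, and pseudogenes share its 3′ end. Cirbp, an RNA-binding protein induced by cooling, had 298, 287, 265 and 322 RPM in GSCs and 208, 231, 237 and 187 RPM in condition 2. Its libraries did not overlap, but its adjusted p was 0.125 (log2 difference -0.44, SE 0.12).

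In the list of G1 phase control, 1 of 22 rose and 1 fell, beside 0.445% higher and 1.02% lower over all tested genes. Ccnd1 was the fall. Cdk6, a partner kinase of D-type cyclins, had 3.59, 2.15, 1.48 and 2.55 RPM in GSCs and 11.5, 14.1, 16.1 and 27.5 RPM in condition 2. Libraries of the groups were apart, with a log2 change of 2.38 (SE 0.34, adjusted p = 0.0116). Other gene models share its 3′ end. None of 27 G2 and M phase genes passed. None of 23 p53 targets, 41 oxidative phosphorylation genes, 24 cholesterol synthesis genes or 12 interferon response genes passed. Their median log2 changes were -0.16, 0.14, -0.31 and -0.43. Of 23 glycolysis genes, Aldoc, an aldolase, fell by 0.90 (adjusted p = 0.0496), from 72.0 to 97.7 RPM in GSCs to 40.1 to 56.1 RPM in condition 2.

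**Figure D3:**
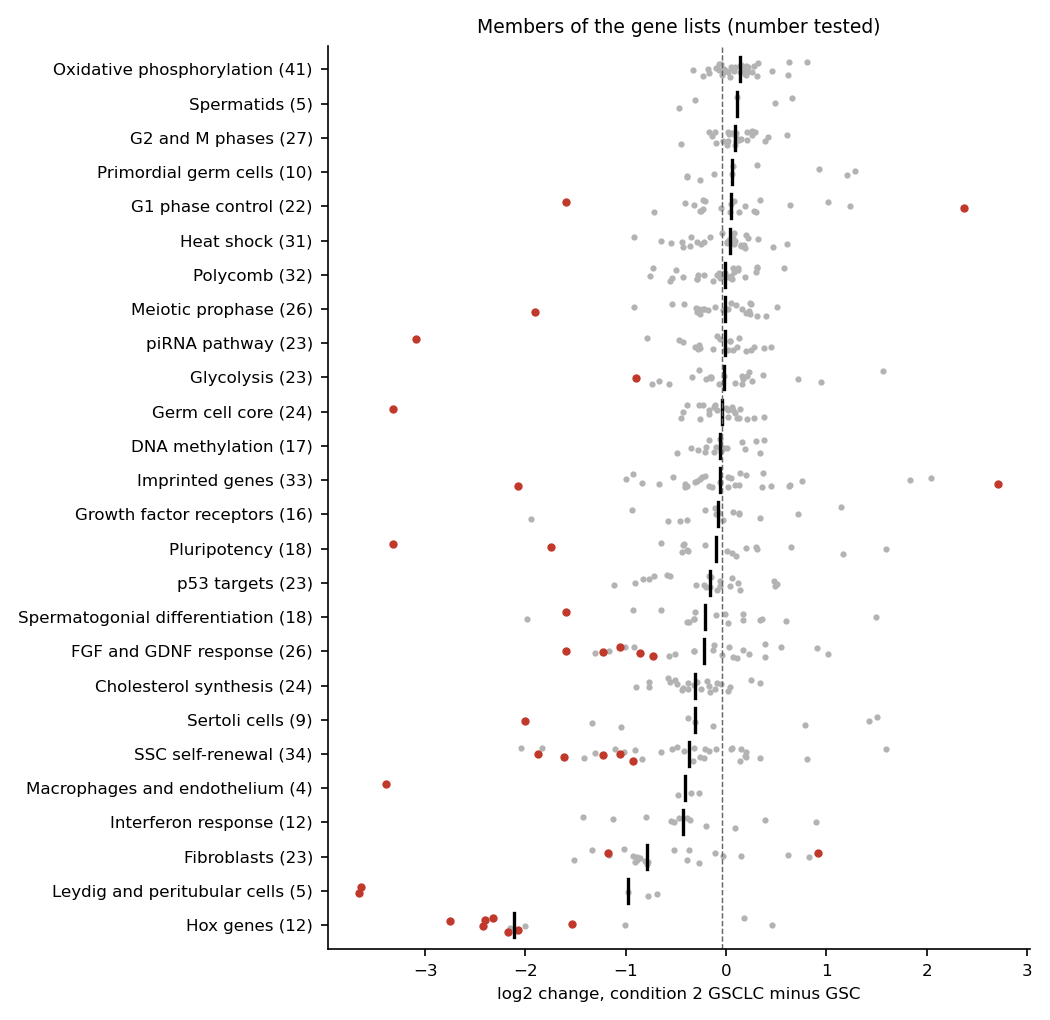
The log2 change between condition 2 GSCLC and GSC lines of every tested member of 26 gene lists, ordered by list median (black bar), with called genes in red and the median of all genes as a dashed line. The Hox list has the lowest median at -2.11, and the number tested is given beside each list.

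Some transcripts of somatic testis cells fell in condition 2. In these bulk samples, fewer cells of a type and less RNA per cell cannot be told apart. Hsd3b1, a steroid-synthesis enzyme, had 34.2, 2.8, 36.7 and 3.83 RPM in GSCs and was listed at 0 in every condition 2 library. Cyp11a1, the side-chain cleavage enzyme that starts steroid synthesis, had 36.2, 3.23, 60.1 and 2.3 RPM in GSCs and 0.261 RPM in 1 condition 2 library, with 0 in the others, and its 3′ end shares sequence with Fuca2. Both were high in the first culture of each GSC line and low in the second. Both passed the test (adjusted p = 0.00875 and 0.00827). Without the first library of both GSC lines neither passed, and that alternative was chosen after seeing the data.

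Clu, clusterin, had 75.3, 19.6, 130 and 26.0 RPM in GSCs and 7.02, 7.83, 23.2 and 11.6 RPM in condition 2. The groups overlapped, and it lost its call in the same way. It was the 1 fall among 9 tested Sertoli genes (adjusted p = 0.0345), beside 1.02% lower over all tested genes. Fcer1g, the shared gamma chain of Fc receptors, had 10.1, 4.31, 11.8 and 18.9 RPM in GSCs and at most 0.251 RPM in condition 2 (adjusted p = 0.0204). It too lost its call without the first library of both GSC lines and on the second cultures alone. Unlike Clu, Fcer1g was higher in the second culture of GSC_2 than in the first. The summed level of the Leydig and peritubular list was 45 to 140.8 RPM in GSCs and 20.35 to 28.17 RPM in condition 2. Of its 14 members 5 were tested, and 2 of these were called lower, Cyp11a1 and Hsd3b1, beside 1.02% of all tested genes. Both reached 5 RPM only in the first cultures of the GSC lines. They therefore entered the test only through being high in GSCs, and the count is a description. The summed level of the fibroblast list was 619.9 to 1344 RPM in GSCs and 505.2 to 861.7 RPM in condition 2. GSC_1, with 681.2 and 619.9 RPM, lay within the condition 2 range, and GSC_2 had 1236 and 1344 RPM. The summed level of the Sertoli list was 1064 to 1241 RPM in GSCs and 880.3 to 967.7 RPM in condition 2. That of macrophages and endothelium was 29.01 to 42.86 RPM and 16.71 to 28.27 RPM. The Sertoli sum includes Dmrt1, which is also on the list of differentiation regulators. Dmrt1 had 313 to 378 RPM in GSCs and 255 to 314 RPM in condition 2, so the sum is not a measure of Sertoli RNA alone.

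Of 23 fibroblast genes, 1 rose and 1 fell, beside 0.445% higher and 1.02% lower over all tested genes. The median log2 change of this list was -0.79, beside -0.04 for all genes, and 19 of the 23 were below 0. Col5a1, a fibrillar collagen gene, fell by 1.18 (SE 0.21, adjusted p = 0.033), from 49.9 to 84.2 RPM to 26.3 to 35.1 RPM. Twist1, a mesenchymal transcription factor, rose by 0.91 (SE 0.17, adjusted p = 0.0366), from 31.3 to 49.1 RPM to 57.1 to 98.3 RPM. The part of somatic transcripts in the differences between lines was not tested.

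More genes were called between the condition 2 lines than between the GSC lines, a difference that was not itself tested. Over single libraries, limma called 659 genes (5.74%) between GSCLC_3 and GSCLC_2, with 272 higher (2.37%) and 387 lower (3.37%) in GSCLC_3, beside 6 (0.0523%) between GSC_2 and GSC_1. Against GSCs, single-library fits called 1374 genes (12%) for GSCLC_2 and 1665 (14.5%) for GSCLC_3. These p-values measure the spread between cultures of a line. Pycard, the inflammasome adaptor ASC, had 81.5 and 77.5 RPM in GSCLC_2 and 0.283 and 0.809 RPM in GSCLC_3, on either side of the 33.0 to 40.7 RPM of GSCs (log2 difference -5.72, SE 0.24, adjusted p = 7.31e-12). Epas1, the hypoxia-inducible factor HIF2A, had 135 and 123 RPM in GSCLC_2, 7.63 and 7.55 RPM in GSCLC_3 and 11.6 to 35.7 RPM in GSCs (log2 difference -3.92, adjusted p = 7.98e-07). For both genes the group means hide lines that lie on opposite sides of GSCs.

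Some other differences set 1 line apart from GSCs. Gbp1, an interferon-induced GTPase, had 0 and 1.3 RPM in GSCLC_2, beside 19.8 and 39.6 RPM in GSCLC_3 and 22.2 to 29.1 RPM in GSCs (log2 difference 4.26, adjusted p = 2.52e-06). Sohlh1, a transcription factor of spermatogonial differentiation, had 1.25 and 4.17 RPM in GSCLC_2, 31.1 and 51.5 RPM in GSCLC_3 and 27.6 to 65.8 RPM in GSCs (log2 difference 3.59, adjusted p = 0.000118). For both, GSCLC_2 was below GSCLC_3 and GSCs. The condition 1 line GSCLC_4 was low as well, with 0 RPM for Gbp1 in both libraries and 2.25 and 9.9 RPM for Sohlh1. In Sox2, Grb10, Dusp4 and Nrp1, both libraries of GSCLC_3 were above every GSC library. In Sox2 and Dusp4, both libraries of GSCLC_2 were also below every GSC library, so these lines lay on opposite sides of GSCs.

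Sox2, a pluripotency factor, had 113 and 128 RPM in GSCLC_3, 22.3 and 23.7 RPM in GSCLC_2 and 30.3 to 37.9 RPM in GSCs (log2 difference between the lines 2.34, adjusted p = 1.95e-07). Its condition 1 levels were also above GSCs, at 118 and 92.2 RPM in GSCLC_1 and 57.6 and 50.1 RPM in GSCLC_4. Grb10, an imprinted adaptor of growth factor receptors, had 138 and 131 RPM in GSCLC_3, 15.3 and 17.2 RPM in GSCLC_2 and 9.6 to 12.1 RPM in GSCs. In condition 1, Grb10 had 9.99 and 18.4 RPM in GSCLC_1 and 31.8 and 35.6 RPM in GSCLC_4. Dusp4, an ERK phosphatase, had 89.3 and 36.1 RPM in GSCLC_3, 6.52 and 7.04 RPM in GSCLC_2 and 17.1 to 23.1 RPM in GSCs. Nrp1, neuropilin 1, had 38.4 and 18.3 RPM and 2.51 and 3.42 RPM in these lines.

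The last 4 of the genes named between these lines were lower in GSCLC_3. AU022751, which RefSeq names Ezhip and which encodes an inhibitor of Polycomb repression, had 3.68 and 1.35 RPM in GSCLC_3, 30.3 and 30.0 RPM in GSCLC_2 and 30.8 to 37.8 RPM in GSCs (log2 difference -3.23, adjusted p = 6.04e-07). Gm14511, a ferritin heavy chain-like gene (RefSeq Fthl17c), had 3.39 and 3.77 RPM in GSCLC_3, 29.3 and 37.8 RPM in GSCLC_2 and 69.5 to 109 RPM in GSCs, with reads shared among its family. A2m, alpha-2-macroglobulin, had 1.98 and 9.7 RPM in GSCLC_3 and 35.9 and 31.6 RPM in GSCLC_2, above the 3.45 to 15.3 RPM of GSCs. Its log2 difference of -2.62 ran from -3.54 to -1.69 on leaving out 1 library, and its call was lost without the filter on low values. In condition 1, A2m had 25.1 and 8.04 RPM in GSCLC_1 and 26.6 and 38.9 RPM in GSCLC_4. 0610031J06Rik (RefSeq Glmp), whose 3′ end overlaps genes on the opposite strand, was high in GSCLC_2 at 60.2 and 57.4 RPM. It had 2.26 and 5.93 RPM in GSCLC_3 and 3.26 to 7.91 RPM in GSCs. Both condition 1 lines were high too, with 47.4 and 61.0 RPM in GSCLC_1 and 64.9 and 66.3 RPM in GSCLC_4. Since the 12 genes were chosen by this difference, their values are a description.

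**Figure D4:**
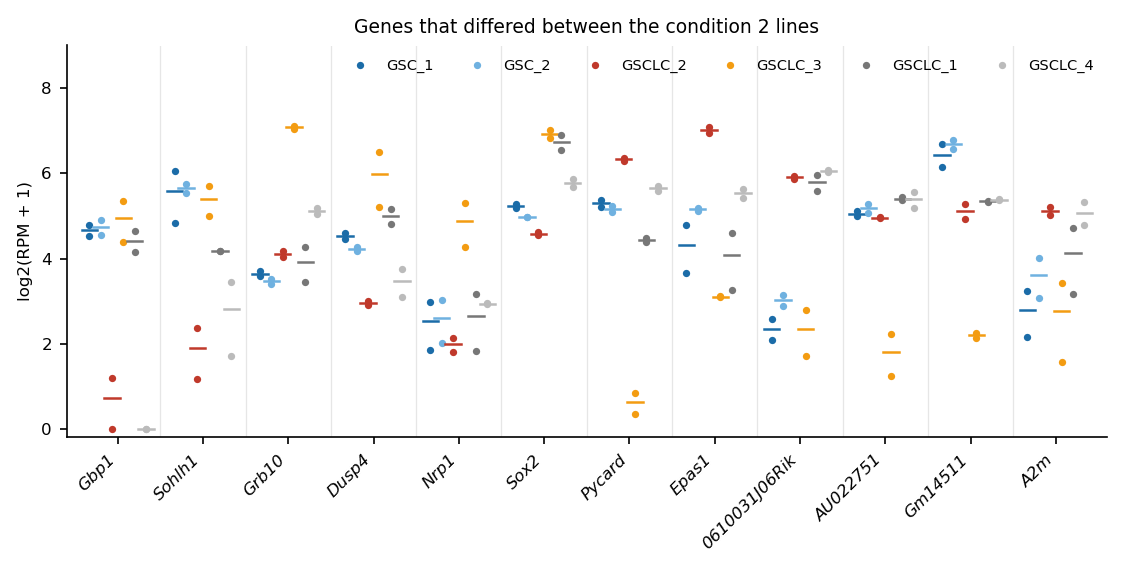
Levels, log2(RPM + 1), of the 12 genes named for a difference between GSCLC_3 and GSCLC_2, in all 6 lines. Points are single libraries and bars are line means, with the first 6 genes higher and the last 6 lower in GSCLC_3 than in GSCLC_2, and GSC lines shown in blue.

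Median differences from GSCs stood apart on chromosomes 6 and 8 in some lines. The median log2 difference from GSCs of the 523 tested genes of chromosome 6 was 0.31 in GSCLC_2 and -0.10 in GSCLC_3. It was also raised in the condition 1 line GSCLC_4, at 0.355, but not in GSCLC_1, at 0.0294. Within chromosome 6, the 20 Mb windows from 80 Mb on had medians of 0.45 to 0.51 in GSCLC_2, and those below 80 Mb had -0.02 to 0.08. For the 619 genes of chromosome 8 the median was -0.03 in GSCLC_2, 0.41 in GSCLC_3, -0.0174 in GSCLC_1 and 0.037 in GSCLC_4, with all 7 windows of GSCLC_3 between 0.367 and 0.495. Medians of the other chromosomes ran from -0.0666 to 0.0925 in GSCLC_2 and from -0.152 to -0.0102 in GSCLC_3. Of the genes called between the lines, 117 of the 272 higher in GSCLC_3 were on chromosome 8 (18.9% of its tested genes), and 113 of the 387 lower were on chromosome 6 (21.6%). DNA content was not measured.

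Among the 51 genes called higher in condition 2, 7 lay on chromosome 8, 1.13% of its 619 tested genes, beside 0.445% over all genes. The share was larger on chromosome 12, with 6 of 391 (1.53%), where the line medians were -0.00909 in GSCLC_2 and -0.125 in GSCLC_3. Those on chromosome 8 were Grtp1, Mrps31, Plekha2, Klhl26, Chtf8, Vac14 and Klhdc4, and each was above GSCs in GSCLC_2 too, by log2 0.75 to 1.28. Dusp4 and Nrp1, higher in GSCLC_3, are on chromosome 8 as well, and A2m, lower in GSCLC_3, is on chromosome 6 in the stretch above 80 Mb. Leaving out both chromosomes gave 218 called genes in the comparison of condition 2 with GSC lines, an alternative chosen after seeing the data.

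**Figure D5:**
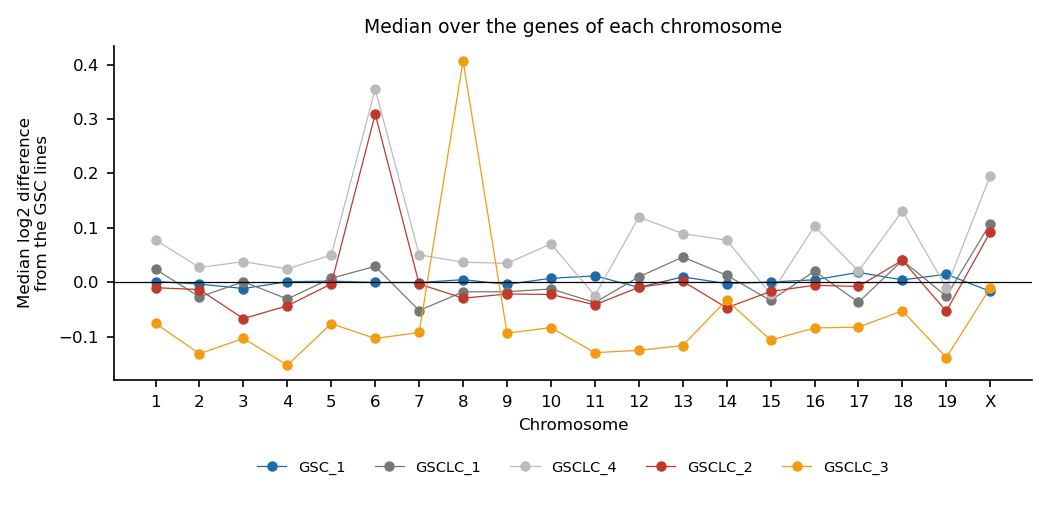
Median log2 difference from the mean of the GSC lines over the tested genes of each chromosome, for GSC_1, the condition 2 lines GSCLC_2 and GSCLC_3 and the condition 1 lines GSCLC_1 and GSCLC_4. At chromosome 6, GSCLC_2 (0.31) and GSCLC_4 (0.355) lie above the other lines, and at chromosome 8 GSCLC_3 does (0.41).

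The condition 1 lines GSCLC_1 and GSCLC_4, kept at 34 °C for 3 weeks before derivation, share their GSC controls with the condition 2 lines. Their values are given beside those of condition 2. No gene was called between the conditions by limma (0 of 11471, 0%, smallest adjusted p 0.937), and 530 had an unadjusted p under 0.05. Crym had line means of 18.9 and 24.2 RPM in condition 1 and 34.3 and 31.6 RPM in condition 2. Hoxb9 had 18.6 and 10.6 RPM in condition 1, beside a condition 2 mean of 9.07 RPM. Pou5f1 had 7.35 and 6.34 RPM in condition 1, beside 1.9 RPM. The condition 1 means of Crym, Hoxb9 and Pou5f1 lay between those of GSCs and condition 2. Other called genes had condition 1 means further from GSCs than condition 2. These means were 9.01 and 13.8 RPM for Hoxb6, 4.06 and 7.05 RPM for Hoxb5 and 26.8 and 34.3 RPM for Lhx1, condition 1 first. With 2 lines in each condition, a miss of the threshold does not show that the conditions act alike.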

How the data were processed

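Poly(A) 3′ ends were measured by SC3-seq on the SOLiD 5500XL system, per the labels' protocols. The authors deposited 1 table of RPM values (reads scaled to a fixed total per library) per gene. Per the submitters' processing notes, cutadapt 1.3, TopHat 1.4.1, Cufflinks 2.2.0 and the builds mm10 and GRCm38 were used, with the role of each not stated. The columns of the 8 libraries sum to 999885 to 999941 RPM. Of the values, 99.7 to 99.8% are whole multiples (within 0.1) of each library's smallest step, but the columns also hold values far below 1 read, so they were not treated as counts and no count model was run. Replicate libraries differed by more than counting noise in every line, so none was merged.

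Levels were log2(RPM + 1), so changes of low genes are understated. Genes needed 5 RPM in 2 of the 8 libraries. The 2 libraries of a line were averaged, and limma 3.58.1 (R 4.3.3) fitted the 6 line means in 3 groups with a variance trend and Benjamini-Hochberg adjustment. GSCLC_3 and GSCLC_2 were compared in a fit of the 12 single libraries. The fits were tested on simulated data. Named genes were the 10 largest changes per direction (adjusted p under 0.05, at least 20 RPM in the higher group, libraries not overlapping), at most 6 called members per list, 6 per direction between the condition 2 lines, and a set of germ cell and heat shock genes. 1 gene that this rule names is not reported here. The members and the 26 lists were chosen with earlier results of these data known. Gene positions are RefSeq GRCm38. Genes sharing 50 bases within the last 300 bases of a transcript (GENCODE) are called uncertain. The labels call the 2 libraries of a line biological replicates of its culture, so p-values for single libraries measure spread between cultures. Over all tested genes, culture replicate numbers do not pair the lines (correlations of their deviations -0.127 to 0.0645 over 6 pairs of lines). Single genes can still share a split between cultures. Alternatives were other pseudocounts, filters, scalings and models, single culture replicates, and leaving out each library or line.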

Additional observations from a re-analysis of the deposited data

Results flagged for a closer look

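Among 142 groups of 4 libraries examined, 7 held a library far from the other 3, where chance gives about 1 in 20. Ccnd1 was at 132 RPM in the second culture of GSC_2, beside 84.8 to 91.1 RPM in the other GSC libraries. Eomes was at 41.8 RPM in the first culture of GSCLC_3, beside 4.76 to 8.61 RPM in the other condition 2 libraries. The second culture of GSCLC_3 had 5.12 RPM for Hoxb9, beside 10.2 to 10.5 RPM, and 56.1 RPM for Aldoc, beside 40.1 to 40.4 RPM. The remaining 3 rest on about 1 read each: Nanog at 0.326 RPM in the first culture of GSC_1, Cyp11a1 at 0.261 RPM in the second culture of GSCLC_2 and Fcer1g at 0.251 RPM in its first culture.

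The difference between GSCLC_3 and GSCLC_2 was tested with limma over single libraries, and 16 of the named genes differed. Of these, 12 were named because they had the largest called differences in this same fit, so their values are a description. The log2 difference was 4.26 for Gbp1, 3.59 for Sohlh1, 2.97 for Grb10, 2.90 for Dusp4, 2.81 for Nrp1 and 2.34 for Sox2. It was -5.72 for Pycard, -3.92 for Epas1, -3.65 for 0610031J06Rik, -3.23 for AU022751, -2.91 for Gm14511 and -2.62 for A2m. Among genes called between condition 2 and GSC lines, it was 2.18 for Tdrd9 (adjusted p = 0.00745), 1.49 for Tex19.1 (adjusted p = 0.000679), 1.06 for Klhl26 (adjusted p = 0.042) and -0.747 for Tcl1 (adjusted p = 0.00517), so for these 4 the group value covers lines that differ in size of change.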

How the results depend on the processing

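The count of 168 genes between condition 2 and GSC lines was 16 without the filter on low values, 72 without the variance trend, 56 on culture replicate 1 alone, 10 without line GSC_1, 13 without line GSC_2, 278 without line GSCLC_2 and, chosen after seeing the data, 100 without the first library of both GSC lines. Single libraries with the line as a random effect gave 476, and 425 with a replicate block; this model assumes 1 correlation for all genes and made more false calls in simulated data than its threshold allows. Over all tested genes, replicate numbers did not pair the lines, although Cyp11a1, Hsd3b1, Clu and Aldh1a1 were higher in the first culture of both GSC lines. Leaving out 1 library gave 80 (without GSCLC_3 replicate 2) to 200, with 104 without GSCLC_2 replicate 2. Between the conditions, 9 genes were called without line GSCLC_2. Between GSCLC_3 and GSCLC_2, the count of 659 was 389 without the filter, 330 without chromosomes 6 and 8, and 178 to 726 leaving out 1 library. Between the GSC lines the count was 0 without the filter, 0 without the first libraries and 0 to 7 leaving out 1 library. GSCLC_2 against GSC (1374 genes) gave 820, 668 and 415 to 1450 under the same 3 changes, and GSCLC_3 against GSC (1665 genes) gave 1108, 958 and 780 to 1545. The cause of these moves was not tested. Chrna4, Lat, Crym and Sfi1 passed in all 26 settings, Tdrd9 and Eomes in 12 and Aldoc in 8. Some uncalled genes changed sign. Hspa8 was -0.0532 when quantile-normalised, -0.0262 on replicate 1 alone, -0.0036 without line GSC_2, -0.151 without line GSCLC_2, and -0.025 to 0.0447 leaving out a library. Hspa1a was -0.116 on replicate 1 alone, -0.062 without line GSC_1 and -0.0097 to 0.152 leaving out a library. Sox2 was -0.52 without line GSCLC_3, Ddx4 -0.0374 without line GSC_2, Gfra1 0.012 on replicate 1 alone and Ret 0.0328 without line GSCLC_2.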

Other observations

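Among other called genes, chosen after their values were seen, members of the ferritin-like Fthl17 family on chromosome X were lower in condition 2 lines. Fthl17 (RefSeq Fthl17e) had 27.1 to 56.6 RPM in GSCs and 6.47 to 13.3 RPM in condition 2 (log2 change -2.07, SE 0.29, limma adjusted p = 0.0109). The log2 change was -1.91 for Gm14458 (RefSeq Fthl17d, adjusted p = 0.0231) and -1.67 for Gm5634 (RefSeq Fthl17b, adjusted p = 0.0345). The family's genes share reads, so these are not separate measurements.

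Some developmental transcription factors outside the lists also fell, while Sall2, the zinc finger factor described above, rose. Dlx3 had 34.7 to 57.4 RPM in GSCs and 4.52 to 18.3 RPM in condition 2 (log2 change -2.20, adjusted p = 0.0435). Barhl2 had 46.3 to 69.9 RPM and 9.61 to 17.3 RPM (log2 change -1.85, adjusted p = 0.00947). Dmrt2 had 9.95 to 18.3 RPM and 0.809 to 1.5 RPM (log2 change -2.87, adjusted p = 0.0181).

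Hey1, a target of Notch signalling, rose from 20.4 to 25.8 RPM to 29.1 to 78.0 RPM (log2 change 1.24, adjusted p = 0.043). Socs2, an inhibitor of cytokine signalling, rose from 2.8 to 6.12 RPM to 15.1 to 20.9 RPM (log2 change 1.97, adjusted p = 0.0315). Abl1, a tyrosine kinase, rose from 20.5 to 33.2 RPM to 70.7 to 81.4 RPM (log2 change 1.53, adjusted p = 0.00816).

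Aldh1a1, a retinaldehyde dehydrogenase, had 16.9 and 44.3 RPM in the first cultures of GSC_1 and GSC_2 and 1.94 and 2.3 RPM in the second, beside 0 to 1.62 RPM in condition 2 (adjusted p = 0.0473). Its split between cultures was that of Cyp11a1 and Hsd3b1.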
